A study of Homo sapiens with 12 samples.

Results

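The members of the RAS to ERK cascade described here were 7 genes, BRAF, ARAF, MAP2K1, MAP2K2, MAPK3, NRAS and NF1, chosen by gene symbol out of 44659 genes in the count table, and all 7 passed the filter on low counts. RNA was sequenced from A375, an established human skin melanoma cell line, in 4 groups of 3 libraries each. Control cells (CC) spent 72 h in DMSO, the drug solvent. In treated cells (TC) the medium held MAPKi, a mixture of 500 nM vemurafenib, which inhibits BRAF, and 500 nM cobimetinib, which inhibits MEK, for 72 h. Persister cells (PC) had the same 72 h of MAPKi followed by 2 days in drug-free medium, and recovered cells (RC) the same followed by 9 days in drug-free medium. The RNA was cytoplasmic and depleted of ribosomal RNA. The only control was DMSO harvested at 72 h, so time in culture and earlier drug exposure cannot be told apart in PC and RC, and all libraries came from 1 cell line.

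In this cascade a RAS GTPase such as NRAS, when loaded with GTP, recruits RAF kinases (BRAF and ARAF) to the membrane. RAF phosphorylates the MEK kinases, MEK1 (encoded by MAP2K1) and MEK2 (MAP2K2), which in turn phosphorylate ERK, of which MAPK3 encodes ERK1. Neurofibromin, encoded by NF1, is a GTPase activating protein that returns RAS to its inactive form. Many melanomas carry an activating mutation in BRAF or NRAS, or have lost NF1, and the inhibitors used here act on BRAF and MEK proteins, not on their transcripts.

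Total counts ran from 37773389 to 55567097 per library, with 20591 to 22363 genes detected. The melanoma genes SOX10 (539 to 1067 CPM), MITF (147 to 476 CPM) and DCT (337 to 7866 CPM) were present in every library, while MLANA (at most 1.94 CPM) and TYR (at most 5.93 CPM) were low; CPM are counts scaled to the normalised library size. Of 9 markers of keratinocytes, immune cells and endothelium, 8 stayed at or below 5.21 CPM, with PTPRC at most 0.694 CPM, PECAM1 at most 0.0247 CPM and KRT14 at most 2.64 CPM. Within these low levels the keratinocyte markers summed to at most 0.0452 CPM in CC, 0.261 to 0.544 in TC, 1.96 to 2.64 in PC and at most 0.0492 in RC, with KRT14 called higher in TC and PC. The endothelial markers summed to 3.36 to 5.23 CPM in CC, 1.73 to 2.33 in TC, 1.67 to 1.83 in PC and 3.27 to 3.52 in RC, with VWF called lower in TC and PC, as was PTPRC. The remaining marker, CD68, which encodes a lysosomal membrane protein also found in macrophages, moved with the groups, at 127 to 173 CPM in CC, 719 to 1065 CPM in TC, 632 to 774 CPM in PC and 118 to 131 CPM in RC, and the part of these markers in the results was not tested. The summed level of 8 melanoma markers was 1828 to 2006 CPM in CC, 7224 to 10427 CPM in TC, 3647 to 5256 CPM in PC and 1635 to 1695 CPM in RC. These 8 melanoma markers did not all move the same way. Under drug, 5 of them were called higher than CC and 1 lower. At day 2 the counts were 6 and 1, and at day 9 they were 0 and 4. DCT alone reached 7866 CPM, from 337 to 444 CPM in CC. MITF was highest in a CC library, at 476 CPM, and its lowest level, 147 CPM, lay outside CC. DUSP6 and SPRY4, feedback inhibitors whose transcription follows ERK activity, served as a check of drug action. DUSP6 was at 77.6, 94.4 and 297 CPM in CC, at 3.25 to 5.26 CPM in TC, at 4.51 to 6.09 CPM in PC and at 125 to 145 CPM in RC. SPRY4 was at 342, 270 and 720 CPM in CC, at 1.46 to 1.79 CPM in TC, at 0.674 to 0.925 CPM in PC and at 248.7 to 285 CPM in RC. CC replicate 3 thus stood apart from the other CC libraries in both genes, and values without it are given for BRAF and NF1 against CC and wherever it decided a call on a member. Nothing in the labels says that the replicates were separate cultures, so p-values measure the spread between these libraries, which may be technical.

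Promoter sequences are shown for the members that moved together with the drug, the MEK and ERK1 genes on one side and ARAF and NRAS on the other. Each sequence is the 250 bases before the transcription start in the RefSeq promoter table (GRCh38.p14), 5′ to 3′ on the strand of the gene, and all 7 members had an entry. For the genes shown the start is that of the reference transcript. The MAPK3 window and the end of the MAP2K1 window lie inside the gene spans given with the values, because other annotated transcripts of these genes start further upstream. The BRAF window, counted in the motif totals but not shown, lies inside its gene span. It belongs to a start 661 bases from that of the BRAF reference transcript. Capitals mark GGGCGG, a GC box, or CCGGAA, an ETS core, on either strand (read as CCGCCC or TTCCGG on the other), and no capital run belongs to both motifs. The windows lie at chr15:66386662-66386911 (+ strand) for MAP2K1, chr19:4124123-4124372 (− strand) for MAP2K2, chr16:30123221-30123470 (− strand) for MAPK3, chrX:47560955-47561204 (+ strand) for ARAF and chr1:114716772-114717021 (− strand) for NRAS.
MAP2K1: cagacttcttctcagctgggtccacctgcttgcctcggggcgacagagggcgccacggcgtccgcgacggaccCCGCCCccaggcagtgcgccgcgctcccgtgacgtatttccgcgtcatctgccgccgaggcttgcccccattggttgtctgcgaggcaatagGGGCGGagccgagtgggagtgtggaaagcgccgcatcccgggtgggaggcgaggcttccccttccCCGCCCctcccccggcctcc
MAP2K2: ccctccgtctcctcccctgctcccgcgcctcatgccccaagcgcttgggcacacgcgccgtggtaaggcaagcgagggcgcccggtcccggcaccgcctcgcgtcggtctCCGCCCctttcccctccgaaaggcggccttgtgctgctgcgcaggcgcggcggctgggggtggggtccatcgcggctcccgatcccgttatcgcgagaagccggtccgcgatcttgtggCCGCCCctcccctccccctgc
MAPK3: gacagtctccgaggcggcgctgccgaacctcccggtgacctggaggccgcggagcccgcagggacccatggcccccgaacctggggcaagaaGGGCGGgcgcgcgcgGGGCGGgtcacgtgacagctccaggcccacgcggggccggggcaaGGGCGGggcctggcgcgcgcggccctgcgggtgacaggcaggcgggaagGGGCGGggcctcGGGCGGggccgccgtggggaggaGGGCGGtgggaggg
ARAF: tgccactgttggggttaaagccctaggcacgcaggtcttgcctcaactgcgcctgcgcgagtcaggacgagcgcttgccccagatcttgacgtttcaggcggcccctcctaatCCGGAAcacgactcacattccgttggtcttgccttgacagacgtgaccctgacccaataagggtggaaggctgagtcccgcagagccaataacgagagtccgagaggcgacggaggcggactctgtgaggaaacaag
NRAS: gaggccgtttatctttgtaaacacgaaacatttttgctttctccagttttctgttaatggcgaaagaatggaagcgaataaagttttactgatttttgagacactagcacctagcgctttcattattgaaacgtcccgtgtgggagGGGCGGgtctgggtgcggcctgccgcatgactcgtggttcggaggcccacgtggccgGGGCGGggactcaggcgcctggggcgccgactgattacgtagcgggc
The GC content of these windows was 71.2% for MAP2K1, 74.0% for MAP2K2, 80.4% for MAPK3, 59.2% for ARAF and 54.4% for NRAS, against a median of 58.0% over 35116 promoters. GGGCGG occurred 3 times before MAP2K1, 2 times before MAP2K2, 6 times before MAPK3 and 2 times before NRAS, and 42.6% of all promoters held at least 1 match. CCGGAA occurred in 1 member, ARAF, against 14.5% of all promoters. Of the other motifs searched on both strands, CACGTG occurred once each before MAPK3 and NRAS (6.34% of all promoters) and TGACGTCA once before NF1 (1.65%). TGANTCA, TTTGGCGC and TATAAA, in 6.57%, 0.55% and 10.7% of promoters, occurred before 0 of the 7 members. These matches describe letters and not binding sites.

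The comparison of TC with CC asked how 72 h of MAPKi changed these transcripts. ARAF rose 1.80-fold and NRAS 1.34-fold, whereas the MEK genes MAP2K1 and MAP2K2 and the ERK1 gene MAPK3 fell by 1.19-fold, 1.39-fold and 1.15-fold. BRAF and NF1 did not pass the test. Of the 7 members, 2 were called higher and 3 lower at a Benjamini-Hochberg adjusted p under 0.05 in edgeR's quasi-likelihood test, and 1, ARAF, was called higher beyond 1.5-fold by glmTreat. Among all 15916 genes tested, 33.2% were called higher and 34.7% lower, and beyond 1.5-fold 16.1% were higher and 19.3% lower. The median absolute log2 fold change over all genes was 0.63, larger than that of 6 of the 7 members. In bulk RNA, fewer cells with a transcript and less of it per cell cannot be told apart.

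ARAF was at 59.2, 60.2 and 56.2 CPM in CC replicates 1 to 3, at 103, 108 and 107 CPM in TC, at 101.3, 96.3 and 100.9 CPM in PC, and at 68.8, 59.9 and 58.9 CPM in RC. The TC and PC libraries lay above every CC and RC library, and the CC and RC ranges overlapped. ARAF changed by a log2 fold change of 0.85 ± 0.07 (SE) in TC (edgeR adjusted p 2.3e-07; glmTreat adjusted p 0.000715), with all 3 TC libraries higher. ARAF, the RAF family member on chromosome X (GRCh38, chrX:47561205-47571908), was the member with the largest change in TC and in PC.

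NRAS, the RAS gene of the set (chr1:114704469-114716771), was at 116, 126 and 135 CPM in CC, at 160, 170 and 176 CPM in TC, at 178, 189 and 205 CPM in PC, and at 143, 159 and 156 CPM in RC. Every TC, PC and RC library lay above every CC library. In TC the log2 fold change was 0.43 ± 0.08 (SE, edgeR adjusted p 0.000331).

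MAP2K2, which encodes MEK2 (chr19:4090321-4124122), was at 281, 297 and 234 CPM in CC, at 211, 182 and 189 CPM in TC, at 228, 204 and 188 CPM in PC, and at 277, 268 and 251.9 CPM in RC. Its TC and PC libraries lay below all CC libraries, of which replicate 3 was the lowest. In TC it fell by 0.48 on the log2 scale (SE 0.10, edgeR adjusted p 0.000955).

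MAP2K1, which encodes MEK1 (chr15:66386837-66491656), was at 52.7, 59.7 and 50.4 CPM in CC, at 45.7, 45.4 and 46.2 CPM in TC, at 37.1, 36.4 and 39.1 CPM in PC, and at 59.4, 59.8 and 58.6 CPM in RC. TC lay below CC and PC below TC with no overlap, and the RC libraries lay at the upper end of CC. In TC it fell by 0.25 on the log2 scale (SE 0.07, edgeR adjusted p 0.00500). Exons of SNAPC5 and of a long non-coding RNA on the opposite strand cover 8.48% and 12.7% of the MAP2K1 reference transcript, and the counting was not stated to use strand.

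MAPK3, which encodes ERK1 (chr16:30114105-30123506), was at 68.0, 73.7 and 57.6 CPM in CC, at 59.6, 58.3 and 54.7 CPM in TC, at 56.8, 53.9 and 51.2 CPM in PC, and at 74.3, 72.5 and 74.9 CPM in RC. CC and TC overlapped because CC replicate 3 lay among the TC libraries. MAPK3 fell by 0.21 on the log2 scale in TC (SE 0.08, edgeR adjusted p 0.0411), a call that was lost in 11 of 18 alternative fits. Adjusted p-values in these 18 fits ran from 0.00144 without CC replicate 3, where the log2 fold change was -0.29, to 0.160 without CC replicate 2, where it was -0.13. The call was also lost without CC replicate 1 (adjusted p 0.0963) and without any single TC library (0.0532 to 0.129).

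BRAF, the target of vemurafenib (chr7:140719327-140924929), was at 57.0, 47.9 and 68.1 CPM in CC, at 66.8, 64.9 and 61.3 CPM in TC, at 56.8, 55.7 and 55.9 CPM in PC, and at 36.4, 37.6 and 39.8 CPM in RC. The CC libraries spanned the TC and PC values, and the RC libraries lay below all others. The log2 fold change in TC was 0.16 (95% confidence interval -0.06 to 0.38, edgeR adjusted p 0.186). Without CC replicate 3, the highest CC library, it was 0.30 and passed the test (adjusted p 0.00365), so whether BRAF was called in TC rests on that library. Exons of NDUFB2 on the opposite strand overlap 1239 bases of BRAF exons in other annotated transcripts but 0 bases of its reference transcript. A long non-coding RNA on the opposite strand covers 2.48% of that reference transcript, and the counting was not stated to use strand.

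NF1 (chr17:31094927-31382116) had 117, 172 and 681 reads in the CC libraries and 130, 334 and 460 reads under drug (TC). It had 437, 123 and 447 reads at day 2 (PC) and 220, 412 and 806 reads at day 9 (RC). In CPM these were 2.89, 3.89 and 14.4 for CC, 3.37, 8.53 and 8.58 for TC, 11.4, 2.67 and 10.3 for PC, and 5.42, 7.33 and 15.2 for RC. The libraries of a group differed by 2.55 to 4.99 times, and the 4 groups overlapped. The median coefficient of variation within groups was 57.2% for NF1, against 2.38% to 8.69% for the other 6 members. Among 11902 genes with a mean count of at least 100, 142 (1.19%) varied as much or more. The log2 fold change in TC was -0.05 with a 95% confidence interval from -1.5 to 1.4 (edgeR adjusted p 0.953), so changes within that interval were not detectable. Without CC replicate 3 it was 1.02 (adjusted p 0.175). The cause of this spread was not tested.

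**Figure D1:**
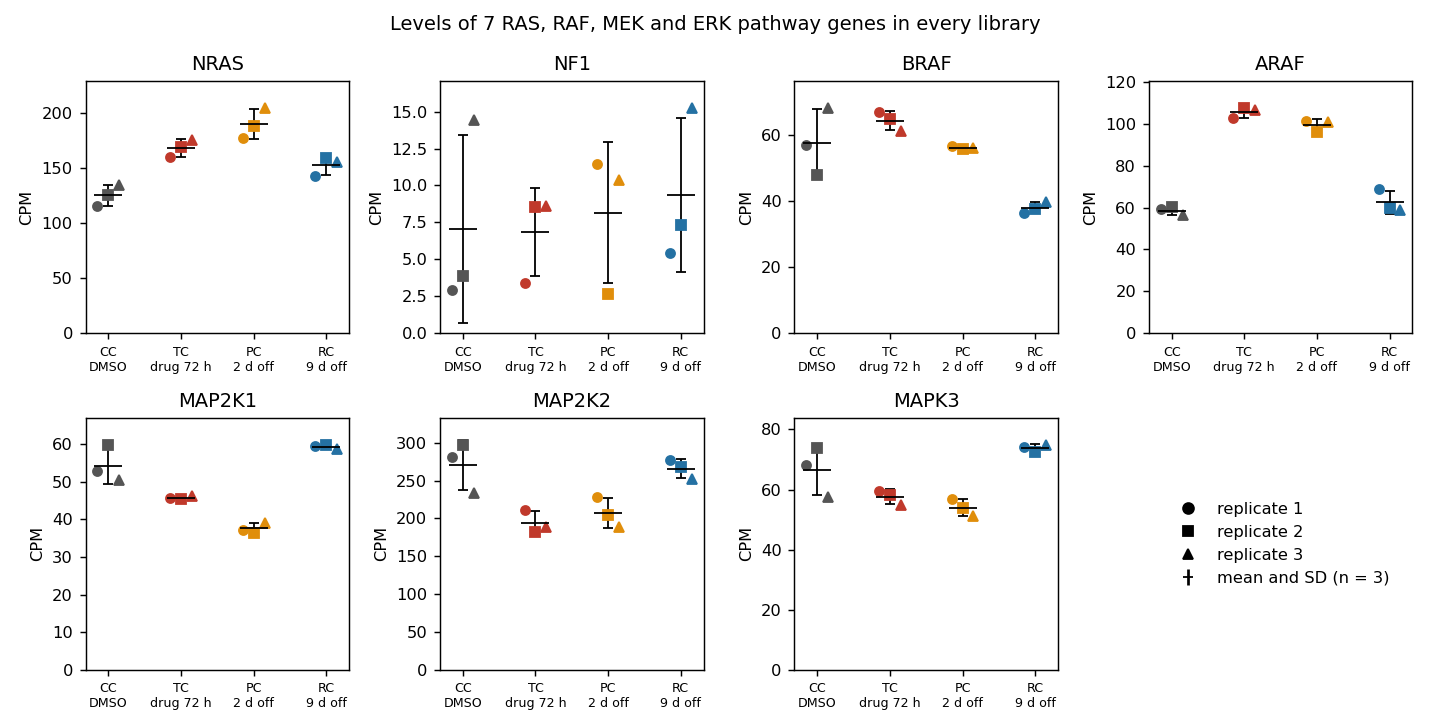
CPM of each gene (vertical axes, from 0) in every library of CC, TC, PC and RC (horizontal axes); symbols are replicates 1 to 3, and black marks the mean and SD of 3 libraries. ARAF and NRAS are higher and MAP2K1 and MAP2K2 lower in TC and PC. MAPK3 is lower in PC, and in TC it overlaps CC. BRAF is lowest in RC at 36.4 to 39.8 CPM, and NF1 overlaps in all groups.

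The comparison of PC with CC asked what remained different 2 days after the drugs were removed. The same 5 members were called in the same directions as in TC, although both comparisons share the CC libraries. ARAF rose by 0.77 ± 0.07 (log2, SE; edgeR adjusted p 5.58e-07), and NRAS by 0.60 ± 0.08 (adjusted p 1.84e-05). MAP2K1 fell by 0.53 ± 0.07 (adjusted p 1.4e-05), MAP2K2 by 0.39 ± 0.10 (adjusted p 0.00377) and MAPK3 by 0.30 ± 0.08 (adjusted p 0.00624). Only ARAF was higher beyond 1.5-fold (glmTreat adjusted p 0.00678) and 0 members were lower beyond it. Of all genes tested, 33.2% were called higher and 35.9% lower, and 17.2% and 19.9% beyond 1.5-fold. BRAF was at -0.04 (95% confidence interval -0.26 to 0.18, adjusted p 0.743) and NF1 at 0.20 (-1.25 to 1.65, adjusted p 0.800). Without CC replicate 3, BRAF was at 0.11 (adjusted p 0.201) and NF1 at 1.27 (adjusted p 0.0957), and neither passed the test.

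The first 2 days without drug, PC against TC, changed 1 of the 7 members at the adjusted p of 0.05. MAP2K1 fell by a further 0.28 ± 0.07 (edgeR adjusted p 0.00794), while MAP2K2 was at 0.09 (95% confidence interval -0.13 to 0.30, adjusted p 0.558). NRAS, at 0.17, BRAF, at -0.20, and ARAF, at -0.09, did not pass the test (edgeR adjusted p 0.119, 0.186 and 0.373). BRAF passed the test without CC replicate 3 (-0.19, adjusted p 0.0471) and in a fit of only PC and TC (-0.20, adjusted p 0.0145). Over all genes, 12.2% were called higher and 12.5% lower, with 2.33% and 1.15% beyond 1.5-fold, where 0 members were called.

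From day 2 to day 9 without drug, RC against PC, 6 of the 7 members changed, each but BRAF back toward its CC level. MAP2K1 rose 1.58-fold (log2 0.66 ± 0.07, edgeR adjusted p 2.01e-06), MAPK3 1.37-fold (0.45 ± 0.08, adjusted p 0.000342) and MAP2K2 1.28-fold (0.36 ± 0.10, adjusted p 0.00577). ARAF fell by 0.67 ± 0.07 (adjusted p 1.67e-06) and NRAS by 0.32 ± 0.08 (adjusted p 0.00251). BRAF fell by 0.56 ± 0.10 (adjusted p 0.000322), from 55.7 to 56.8 CPM in PC to 36.4 to 39.8 CPM in RC. The 3 members called higher and 3 called lower stand beside 35.7% and 34.2% of all genes. Beyond 1.5-fold 0 members were called (1, ARAF, without RC replicate 1), against 20.2% of genes higher and 18.5% lower.

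The comparison of RC with CC asked which members still differed after 9 days without drug. BRAF was lower by 0.60 ± 0.10 (edgeR adjusted p 0.000782), a 1.52-fold difference, and every RC library lay below every CC library. Without CC replicate 3 the difference was -0.46 (adjusted p 0.000656). NRAS was higher by 0.28 ± 0.08 (adjusted p 0.0128), a call lost without CC replicate 1 (0.23, adjusted p 0.0515) or without RC replicate 2 (0.25, adjusted p 0.0553). ARAF was at 0.10 (95% confidence interval -0.05 to 0.24), MAP2K2 at -0.03 (-0.24 to 0.19), MAP2K1 at 0.13 (-0.02 to 0.27) and MAPK3 at 0.15 (-0.03 to 0.33), and none of these 4 passed the test. MAP2K1 and MAPK3 passed it without CC replicate 2 (0.20, adjusted p 0.00979, and 0.23, adjusted p 0.0290). NF1 was at 0.40 (-1.04 to 1.84, adjusted p 0.670), and at 1.47 without CC replicate 3 (adjusted p 0.0897). Of all genes, 18.2% were called higher and 19.1% lower, with 1.35% and 2.52% beyond 1.5-fold, where 0 members were called.

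**Figure D2:**
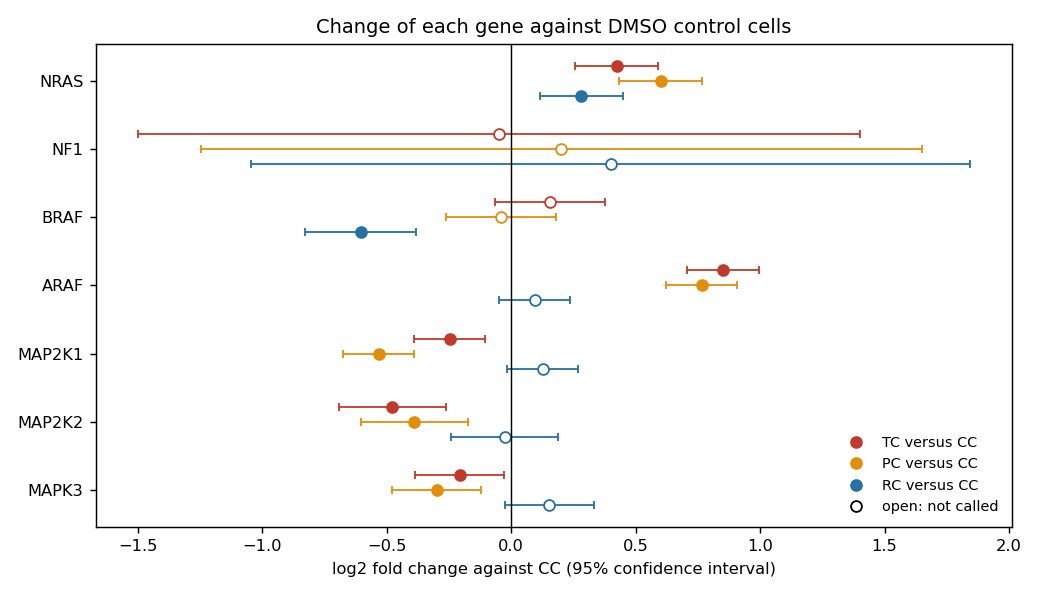
Log2 fold change of each gene (rows) in TC, PC and RC against CC, with 95% confidence intervals from the edgeR fit; filled points passed an adjusted p of 0.05. ARAF and NRAS lie to the right and the MEK and ERK1 genes to the left of 0 in TC and PC, and the interval of BRAF lies wholly left of 0 only in RC, at -0.60.

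BRAF and ARAF are RAF paralogs, and MAP2K1 and MAP2K2 are MEK paralogs, with 63.3% and 81.9% of aligned residues identical. The ratio of their reads within a library does not depend on scaling to library size. The number of BRAF reads per ARAF read was 0.962, 0.796 and 1.21 in the CC libraries, 0.651, 0.603 and 0.575 under drug (TC), 0.560, 0.579 and 0.554 at day 2 (PC), and 0.529, 0.628 and 0.675 at day 9 (RC). The BRAF to ARAF ratio was lower in all TC, PC and RC libraries than in any CC library. In TC and PC this went with higher ARAF, and in RC with lower BRAF. The mean log2 ratio was -0.04 ± 0.30 (SD, n = 3) in CC, compared with -0.72 ± 0.09 in TC, -0.83 ± 0.03 in PC and -0.72 ± 0.18 in RC. An exact permutation test over the 369600 assignments of libraries to 4 groups gave p = 0.00870 (0.0174 adjusted over the 2 ratios). Each of TC, PC and RC against CC gave p = 0.10 in the exact two-sided permutation test, the smallest p that 3 against 3 libraries allow. Without replicate 3 of every group the overall p was 0.0762, and without replicate 2 it was 0.105.

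The MAP2K1 to MAP2K2 read ratio was 0.188, 0.201 and 0.216 in CC libraries, then 0.216, 0.2487 and 0.244 under drug, 0.163, 0.178 and 0.208 at day 2, and 0.215, 0.223 and 0.233 at day 9. It was lower in PC than in either TC or RC with no overlap, and the mean log2 ratio went from -2.08 in TC to -2.46 in PC and -2.16 in RC. The exact permutation test over the 4 groups gave p = 0.0236 (0.0236 adjusted over the 2 ratios). Against the CC mean of -2.31, the exact two-sided p was 0.10 for TC, 0.30 for PC and 0.20 for RC. The overall p was 0.0571 without replicate 1 and 0.238 without replicate 2.

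**Figure D3:**
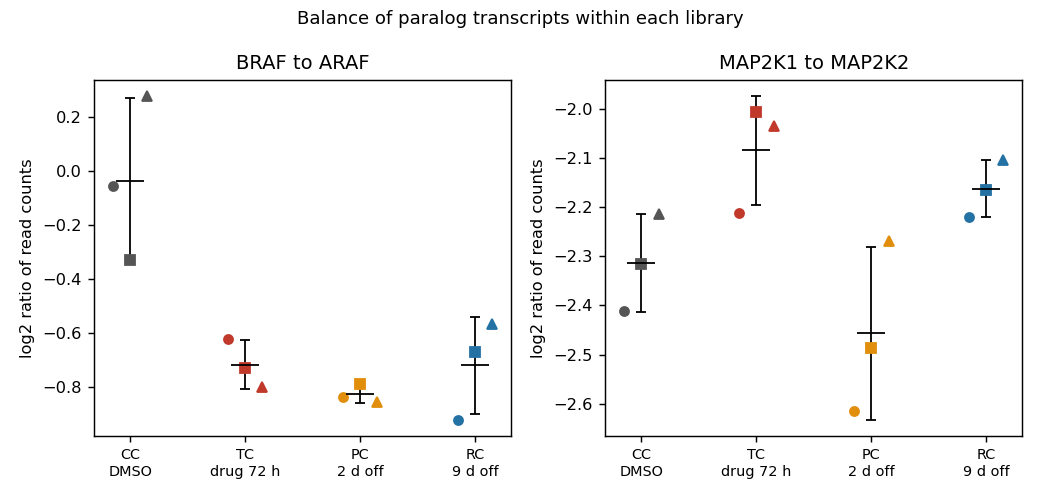
Log2 ratio of BRAF to ARAF reads (left) and of MAP2K1 to MAP2K2 reads (right) in every library of CC, TC, PC and RC; symbols are replicates 1 to 3 and black marks the mean and SD (n = 3). All BRAF to ARAF ratios after MAPKi lie below those of CC, and the MAP2K1 to MAP2K2 ratio is lowest in PC, with a mean of -2.46.

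Levels were compared between genes only per length, as FPKM over the exons of the MANE Select transcript (GENCODE v44, GRCh38). MAP2K2 was the highest member in every group, at 157 ± 19.1 FPKM (SD, n = 3) in CC, 113 ± 8.79 in TC, 120 ± 11.4 in PC and 154 ± 7.27 in RC. In CC the order was MAP2K2, MAPK3 (37.2 ± 4.55), NRAS (29.0 ± 2.2), ARAF (24.6 ± 0.867), MAP2K1 (21.3 ± 1.92), BRAF (8.93 ± 1.57) and NF1 (0.571 ± 0.516). No neighbours in this order overlapped between libraries in CC, TC or RC. ARAF and NRAS moved above MAPK3 in TC, at 44.4 ± 1.10 and 39.0 ± 1.86 FPKM against 32.2 ± 1.42, and in PC, where NRAS (43.98 ± 3.16) and ARAF (41.8 ± 1.16) overlapped. In RC the order over this length was again that of CC. With all annotated exons as the length, NRAS and not MAP2K2 was highest in TC, PC and RC, and MAP2K2 was highest in CC. NRAS then lay above MAPK3 already in CC, at 29.0 against 18.1 FPKM. The places of MAP2K2, NRAS and MAPK3 thus depend on the exons counted. ARAF lay above MAPK3 in TC and PC and below it in CC and RC under both lengths. BRAF and NF1 were the lowest members in all 4 groups under both lengths.

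**Figure D4:**
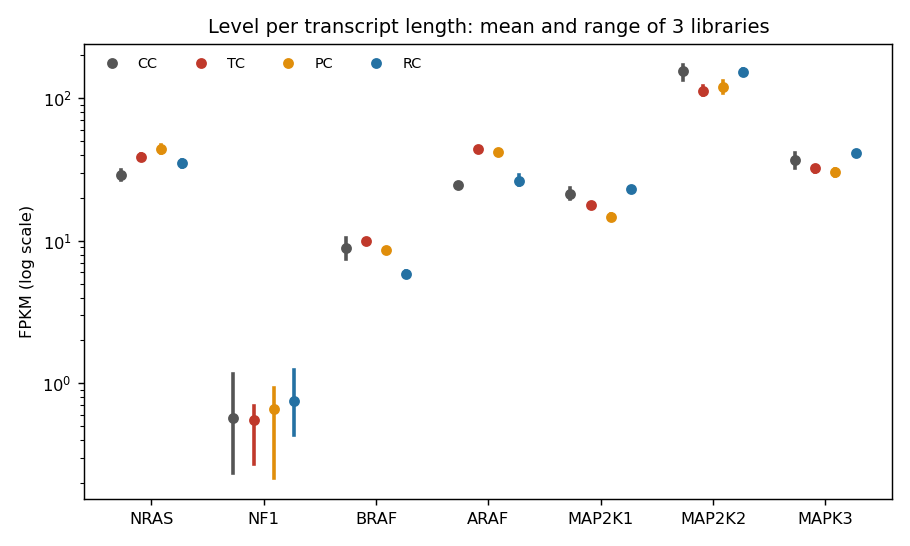
FPKM (log axis) of each gene over its MANE Select transcript in CC, TC, PC and RC; points are means and lines the range of 3 libraries. MAP2K2 is highest, at 113 to 157 FPKM by group, BRAF is at 5.87 to 9.96 FPKM and NF1 lies below 1 FPKM on average.

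The protein sequences behind these genes were described by length and by the share of lysine, glutamate, aspartate and asparagine, the residues that the study followed. This share was 17.2% in ARAF (606 residues), 19.5% in BRAF (766), 21.4% in NF1 (2839), 21.6% in MAPK3 (379), 23.0% in MAP2K2 (400), 23.2% in MAP2K1 (393) and 24.3% in NRAS (189). The median over 12696 tested genes was 21.5%. The MEK and ERK1 genes, lower in TC and PC, lay at 21.6% to 23.2%, and of the members that were higher ARAF lay at the bottom and NRAS at the top of the 7. Codons of these residues that end in A or T made up 3.47% of ARAF and 15.9% of NRAS, the members that were higher, against a median of 9.13%. They made up 7.12% of MAP2K1, 6.0% of MAP2K2 and 4.49% of MAPK3, all below that median, and 11.1% of BRAF and 13.5% of NF1.

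The rest of the pathway was read from 7 lists with 75 genes, of which 68 were tested. In TC 31 of the 68 were higher (45.6%) and 24 lower (35.3%), and in PC 31 were higher and 27 lower. Over all genes tested, 33.2% were higher and 34.7% lower in TC, and 33.2% and 35.9% in PC. The median log2 fold change over all genes was -0.02 in TC and -0.04 in PC. The counts and medians of the lists below are to be read beside these values, and most lists are small. In RC 18 were higher and 15 lower, beside 18.2% and 19.1% of all genes. Beyond 1.5-fold, 16 were higher and 14 lower in TC, beside 16.1% and 19.3% of all genes. In RC 0 were higher and 2 lower beyond it, beside 1.35% and 2.52%.

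Among 9 other genes of the RAS, RAF and ERK families, 6 were higher and 2 lower in TC, with a median log2 fold change of 0.76, and 6 and 2 in PC, with a median of 0.92. KSR2, a scaffold related to RAF that binds MEK, had 9, 15 and 9 reads in CC and 196, 275 and 507 in TC, with 704, 798 and 742 in PC and 36, 29 and 30 in RC. Its libraries in TC, PC and RC lay above those of CC. The log2 fold change was 4.83 ± 0.30 in TC and 6.12 ± 0.31 in PC (edgeR adjusted p 3.6e-08 and 6.34e-09). KSR1, its paralog, fell by 1.22 ± 0.17 in TC (adjusted p 4.26e-05), from 10.7 ± 1.37 CPM (SD, n = 3) in CC to 4.58 ± 0.03. The KSR paralogs thus moved in opposite directions, from a KSR2 level near 0.25 CPM in CC. MRAS, a RAS relative that takes part in a phosphatase complex acting on RAF, was at 33.6 ± 1.65 CPM in CC, 103 ± 21.9 in TC, 97.7 ± 1.49 in PC and 35.8 ± 1.63 in RC.

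Of 8 RAS exchange factors, which load RAS with GTP, 6 were tested, with 2 higher and 2 lower in TC (median -0.12). RASGRP1 fell by 4.03 ± 0.34 in TC, from 8.29 ± 1.78 CPM to 0.511 ± 0.287, and was at 7.995 ± 0.381 CPM in RC (edgeR adjusted p 4.6e-07 for TC). RASGRF2 rose by 1.77 ± 0.22, from 1.19 ± 0.113 to 4.09 ± 1.13 CPM (adjusted p 1.29e-05). RASGRF1 was scarce, with 29, 11 and 23 reads in CC, 1, 4 and 4 in TC, and 4, 0 and 1 in PC. It was called lower in both (adjusted p 0.00359 and 0.00128).

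Of 9 RAS GTPase activating proteins other than NF1, 8 were tested, with 2 higher and 3 lower in TC (median -0.26). RASAL2 rose by 1.69 ± 0.09 in TC and 1.80 ± 0.09 in PC, from 24.5 ± 1.33 CPM to 78.8 ± 8.0 and 85.3 ± 5.76 (edgeR adjusted p 7.38e-09 and 4.45e-09). RASA4, whose reads may be shared with near-identical copies, was at 2.37 ± 0.587 CPM in CC and 6.36 ± 1.91 in TC (adjusted p 0.000986). RASAL1 had 29, 21 and 26 reads in CC, 0 in every TC and every PC library and 18, 12 and 21 in RC. Against a floor of 3 reads per library it was at least 7.41-fold lower in TC and at least 7.30-fold lower in PC.

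Adaptors and scaffolds numbered 20, all tested, with 10 higher and 5 lower in TC (median 0.17) and 10 and 7 in PC. IQGAP1, which binds MEK and ERK, had 329 ± 14.9 CPM in control cells, 109 ± 2.82 after 72 h of drug, 77.2 ± 8.29 at day 2 and 320 ± 21.6 at day 9. In PC it fell by 2.09 on the log2 scale (SE 0.08, edgeR adjusted p 9.39e-10). PEBP1, an inhibitor of the RAF to MEK step, moved the other way, from 266 ± 25.8 CPM to 583 ± 39.1 in TC and 921 ± 18.6 in PC, with 271 ± 7.15 CPM left at day 9. CNKSR2, a scaffold of RAS signalling, fell by 1.94 ± 0.13 in TC (adjusted p 9e-08). Of 8 genes of RAS membrane processing, 7 were tested, 4 were higher and 3 lower in TC, and 0 were beyond 1.5-fold against CC.

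Of 8 kinases activated by ERK, 6 were tested, with 1 higher and 4 lower in TC (median -0.58) and 1 and 5 in PC (median -0.90). RPS6KA2, an RSK kinase, had 159 ± 29.2 CPM in control cells and fell to 41.1 ± 5.43 with drug and to 34.1 ± 4.61 at day 2 without it (edgeR adjusted p 2.1e-07 and 6.83e-08). RPS6KA5, an MSK kinase, fell from 21.6 ± 2.74 CPM to 9.60 ± 0.520 in TC and was higher than CC in RC, at 37.1 ± 1.68 (adjusted p 8.77e-05). MKNK2, an eIF4E kinase, fell by 1.03 ± 0.09 in PC (adjusted p 5.94e-07).

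Of 13 genes of the parallel JNK, p38 and ERK5 cascades, 12 were tested, with 6 higher and 5 lower in TC (median 0.15). MAPK7, which encodes ERK5, rose from a control level of 7.22 ± 1.19 CPM to 19.2 ± 1.35 with drug and 19.0 ± 0.740 at day 2 without it (edgeR adjusted p 1.03e-06 and 1.07e-06). MAP2K6, a kinase of p38, fell by 1.20 ± 0.16 in TC (adjusted p 2.34e-05). MAPK10, which encodes JNK3, was scarce, with 5 to 9 reads in CC and 18 to 27 in TC (adjusted p 0.00223). These counts describe the lists and were not tested as sets. Besides KSR2 and RPS6KA5, other named genes of the lists were still called in RC against CC (edgeR adjusted p 0.000843 to 0.0172). Log2 fold changes were -0.82 for RPS6KA2, 0.51 for RASAL2, 1.02 for RASGRF2, 0.55 for MAPK7, -0.69 for KSR1 and -0.32 for MKNK2. RASA4 was at -1.05, a call lost without CC replicate 1 or without RC replicate 2. MRAS, RASGRP1, RASGRF1, RASAL1, IQGAP1, CNKSR2, PEBP1, MAPK10 and MAP2K6 were not called there.

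**Figure D5:**
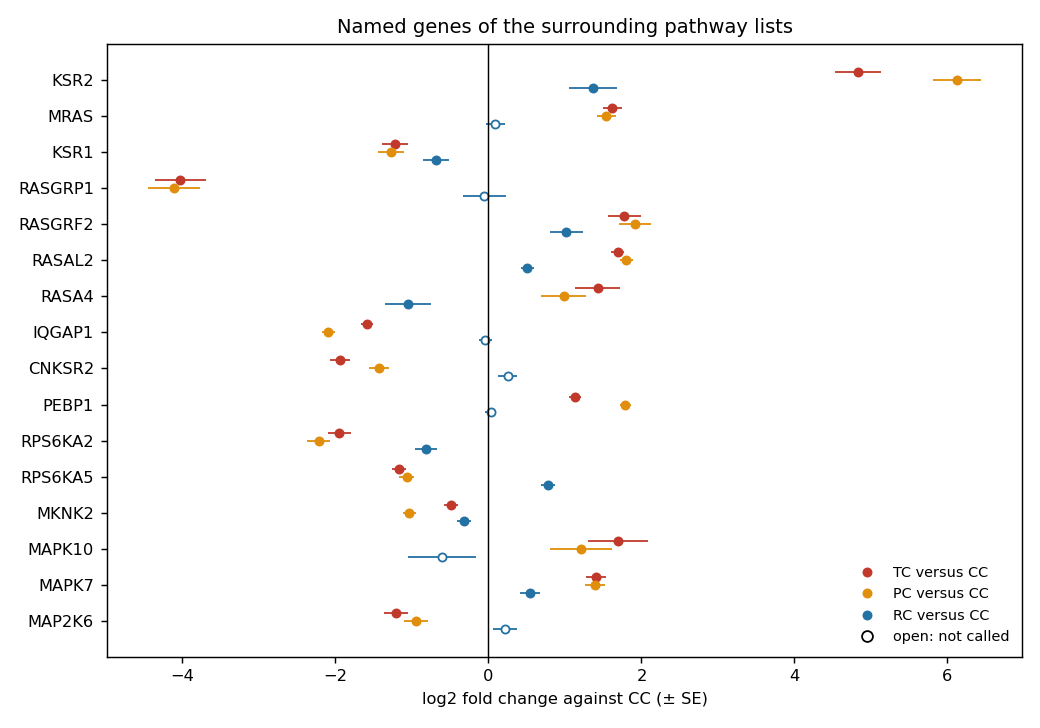
Log2 fold change with SE of 16 named genes of the pathway lists (rows) in TC, PC and RC against CC; filled points passed an adjusted p of 0.05. KSR2 reaches 6.12 in PC and RASGRP1 -4.11, and most RC points lie nearer to 0, though several of them are filled. RASAL1 and RASGRF1, with 0 to 4 reads in TC and PC, are not drawn.

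For each member, the pair of genes with the most similar pattern was found by Pearson's r of log2 CPM over the 12 libraries among 11723 genes. The 12 points share the same normalisation and fall into 4 groups, so r is a description. NRAS was closest to RAP1B (r = 0.988) and ZBTB41 (0.975), ARAF to MICALL2 (0.995) and CYB561D2 (0.994), and BRAF to TSC2 and DDN (both 0.980). MAP2K1 was closest to OXSM (0.994) and WBP2 (0.989), MAP2K2 to CCDC163 (0.958) and LOC105371703 (0.955), and MAPK3 to COQ5 (0.977) and MGC16025 (0.973). NF1 had no gene above 0.763 (PGBD1), followed by LOC105371675 (0.761). ARAF had 1870 genes with r over 0.9, BRAF 106 and NF1 0.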

How the data were processed

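The deposited file holds raw counts per gene for 12 libraries of cytoplasmic, ribosomal RNA depleted RNA. The submitters' processing notes name fastp 0.20.1, HISAT2 2.2.1, HTSeq 0.13.5 and GRCh38.p13, and the authors counted reads on exons with the NCBI annotation; use of strand was not stated. Genes with a mean scaled count of at least 10 were tested (15916 of 44659). All libraries entered one fit in edgeR 4.0.16 (R 4.3.3) with TMM normalisation and no block, which left 8 residual degrees of freedom and a common biological coefficient of variation of 0.182. Tests were two-sided, and standard errors were derived from the F statistic. Calls used an adjusted p under 0.05 over all genes, and glmTreat at 1.5-fold. Within groups no libraries were duplicates. Alternatives were DESeq2 1.42.0, other scaling, another filter, a replicate block, pairwise fits and leaving out each library. At the lowest depth 3 counts are 0.0794 CPM, which covers counting error only. Replicate numbers were not used as pairs. Same-numbered libraries share an ending of their column names across the groups, but the labels do not say what it stands for. Of 18 same-numbered pairs, 2 correlated above 0.1, and pairs with different numbers correlated at most at 0.0417. Members and lists were chosen with earlier results of these data known. Named genes were the 7 members, up to 3 genes per list with the largest change among those beyond 1.5-fold against CC, the pair of genes most like each member, and DUSP6 and SPRY4. Other members of these families are counted in the lists but not named. Exon lengths, coordinates and coding sequences came from GENCODE v44 (GRCh38), not the counting annotation, and promoters from RefSeq (GRCh38.p14).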

Additional observations from a re-analysis of the deposited data

Results flagged for a closer look

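Differences between the time points, tested directly in the edgeR fit, drew attention for 6 members. MAP2K1 differed between the end of treatment and 2 days later, with a log2 fold change of -0.28 in PC against TC (95% confidence interval -0.43 to -0.14). In that comparison 12.2% of all genes were called higher and 12.5% lower. Between days 2 and 9 without drug, RC against PC, the log2 fold changes were -0.56 for BRAF, -0.67 for ARAF, 0.66 for MAP2K1, 0.36 for MAP2K2, 0.45 for MAPK3 and -0.32 for NRAS. These stand beside 35.7% of all genes called higher and 34.2% called lower in RC against PC, so most genes changed. BRAF alone among these 6 moved away from its CC level, from 56.1 ± 0.549 CPM (SD, n = 3) in PC to 37.9 ± 1.72 in RC against 57.7 ± 10.1 in CC. No explanation was tested, and groups of 3 libraries were not screened for single outlying values.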

How the results depend on the processing

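The 35 fold changes of the members (7 genes in 5 comparisons) were recomputed under 18 alternatives each, and 0 of 630 values turned direction while called. Of 19 called changes, 17 were called in every alternative, the exceptions being MAPK3 in TC and NRAS in RC, both against CC. In all, 13 values lost a call and 6 gained one. Leaving out single libraries moved the number of members higher in RC against CC between 0 and 3, the number lower in PC against TC between 1 and 2, and the number lower beyond 1.5-fold in RC against PC between 0 and 1 (ARAF, without RC replicate 1). In TC against CC it moved the number higher between 2 and 3 and the number lower between 2 and 3. In PC against TC, 2 members were lower with only those groups fitted. DUSP6 in RC against CC, at -0.22, ran from -0.54 without CC replicate 1 to 0.65 without CC replicate 3 (adjusted p 0.0078). The TC to CC difference in log2 ratio ran from -0.82 to -0.48 for BRAF to ARAF and from 0.19 to 0.25 for MAP2K1 to MAP2K2 when replicate numbers were left out in turn. With the length of all annotated exons, chosen after seeing the data, MAP2K2 ranked 1 in CC, 3 in TC and PC and 2 in RC.

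With the replicate number as a block, 1 member, NRAS, was called higher in PC against TC (0.17, adjusted p 0.0350), and no other call on a member changed. Under this block the exact permutation p was 0.0347 for BRAF to ARAF and 0.00174 for MAP2K1 to MAP2K2. Libraries with the same number correlated between -0.04 and 0.16 over 18 pairs, 2 of them above 0.1, and 8 of 12 libraries correlated best with one of their own number. Libraries of different groups with different numbers correlated between -0.121 and 0.0417. Between TC and PC, same-numbered libraries correlated at 0.155, 0.0679 and 0.124 for numbers 1 to 3. All of these lay above every pair with different numbers, so a shared origin of these libraries is not excluded.

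With 3 libraries a group, the spread limited NF1 most, with a 95% confidence interval from -1.5 to 1.4 on the log2 scale in TC against CC.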
